A study of Arabidopsis thaliana with 12 samples.

Results

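The genes described are the autophagy-related (ATG) genes of Arabidopsis thaliana, taken as every gene whose symbol in the supplied probe set annotation begins with ATG and a number and whose probe set matches 1 gene. There were 8 such genes, each with 1 probe set, among 13356 genes with a probe set that matches 1 gene. Of these, 7 were ATG8 genes, ATG8B (AT4G04620), ATG8C (AT1G62040), ATG8D (AT2G05630), ATG8E (AT2G45170), ATG8F (AT4G16520), ATG8G (AT3G60640) and ATG8H (AT3G06420). The other was ATG3 (AT5G61500). The members were chosen by symbol and by no measured value, but the family was taken up with earlier results of these data known. Adjusted p-values therefore describe single genes, in a fit of all 22746 probe sets, and nothing was tested over the family.

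RNA of imbibed seeds was hybridised to 12 arrays in 4 groups of 3 biological replicates, numbered 1 to 3 in each group. The pil5 red and pil5 dark seeds carried the insertion allele Salk_072677 of PIL5, and the Col-0 red and Col-0 dark seeds were wild type. All seeds received far-red light (3.2 µmol per square metre and second, 5 min), and those of both red groups then received red light (13 µmol per square metre and second, 5 min). All seeds were then kept in darkness for 12 h, so the dark groups are those whose last pulse was far-red. The mutant was 1 insertion allele, and whole seeds were used, so fewer cells of a type and less RNA per cell cannot be told apart.

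In autophagy, a double membrane grows around a portion of cytoplasm and carries it to the vacuole for breakdown, which returns amino acids, sugars and lipids to the cell. ATG8 is a ubiquitin-like protein that is joined to a lipid of the growing membrane, where it helps the membrane expand and binds cargo receptors. ATG3 is the conjugating enzyme that passes ATG8 to that lipid. PIL5, also called PIF1, is a bHLH factor that holds back germination in the dark and is broken down once red light has activated phytochrome.

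Values are log2 signals as deposited, and the array medians lay between 6.08 and 6.28. Within groups the arrays correlated at r = 0.968 or above. The lowest correlation was in pil5 red. Its array of number 3 (pil5 red 3) also had a mean bioC control signal of 7.29, while the other arrays lay between 8.63 and 8.96. No probe set was tied to PIL5, so the labels of the mutant could not be checked on its own transcript. Of 11 seed markers (storage proteins, oleosins and Em proteins) none was tied to a probe set, and of 10 leaf markers 1 was, the rubisco activase gene RCA. RCA lay between 6.84 and 7.06 in pil5 red, 6.97 and 7.27 in pil5 dark, 7.23 and 7.29 in Col-0 red, and 7.65 and 7.79 in Col-0 dark. Its part in the results below was not tested.

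Several ATG8 transcripts were lower in wild-type seeds that had received red light. The comparison of Col-0 red with Col-0 dark asks which transcripts differ 12 h after a red pulse that converts phytochrome to its active form. ATG8C, ATG8D and ATG8F fell, to between 0.42 and 0.56 of their signal in Col-0 dark, and no member rose. limma called 3 of the 8 genes, all lower, where it called 15.1% of all probe sets (7.33% lower). The median log2 change of the 8 genes was -0.75, and that of all probe sets was 0.0003.

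**Figure D1:**
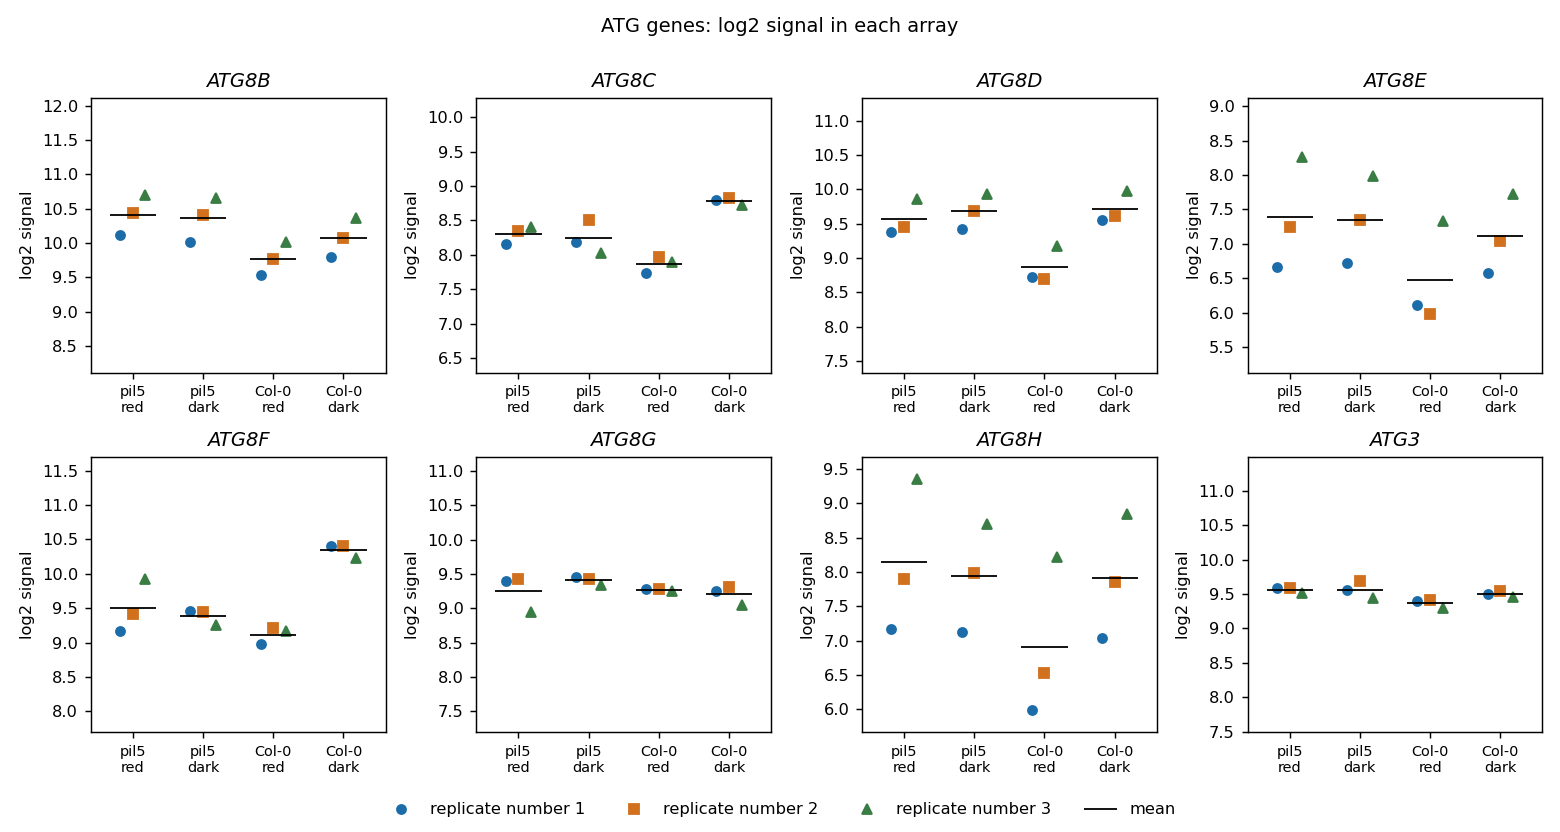
Log2 signal of the 8 ATG genes in each of the 12 arrays, with pil5 red, pil5 dark, Col-0 red and Col-0 dark from left to right. Each symbol is 1 array, its shape and colour give the replicate number, black lines are group means, and every panel spans 4 log2 units. ATG8C, ATG8D and ATG8F were lower in all Col-0 red arrays than in all Col-0 dark arrays, while ATG8E and ATG8H were high in the arrays of number 3.

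ATG8F had the largest fall of the 8. It read 8.98, 9.21 and 9.16 in the Col-0 red arrays of numbers 1, 2 and 3, against 10.41, 10.41 and 10.24 in the Col-0 dark arrays. The groups did not overlap, which held for 16.4% of all probe sets in this direction, and the log2 change was -1.23 (SE 0.17, limma adjusted p = 0.0017). ATG8C read 7.74, 7.97 and 7.89 in Col-0 red and 8.80, 8.83 and 8.73 in Col-0 dark. Its groups lay apart as well, with a log2 change of -0.92 (SE 0.13, limma adjusted p = 0.0017). Both calls held without any 1 array, with adjusted p up to 0.012 for each gene.

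The paralogue ATG8D averaged 8.86 ± 0.27 in Col-0 red and 9.71 ± 0.22 in Col-0 dark (SD, n = 3 each). Its arrays read 8.72, 8.70 and 9.17 in Col-0 red, against 9.56, 9.61 and 9.97 in Col-0 dark, so number 3 was the highest in both groups and the groups did not overlap. The log2 change was -0.85 (SE 0.19, limma adjusted p = 0.013). By replicate number the differences were -0.83, -0.91 and -0.80, a much narrower spread than that of the levels. The call was lost without Col-0 red 1 or Col-0 red 2, with adjusted p up to 0.06. Over all arrays left out in turn the change lay between -1.002 and -0.72.

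In ATG8B, ATG8D, ATG8E and ATG8H, arrays of number 3 were the highest in all 4 groups. ATG8H read 7.17, 7.89 and 9.35 in pil5 red, 7.12, 7.99 and 8.69 in pil5 dark, 5.99, 6.54 and 8.22 in Col-0 red, and 7.04, 7.85 and 8.84 in Col-0 dark. In every group its number 1 array was the lowest and its number 3 array the highest. Its residual SD was 1.0 log2 units without the number and 0.23 with the number as a block, while the median of all probe sets was 0.167 without it and 0.131 with it. The meaning of the number is not given in the sources used here.

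With the number as a block, ATG8H had a log2 change of -1.0 after red in Col-0 (SE 0.16, limma adjusted p = 0.0021), against adjusted p = 0.45 without it. Its differences in numbers 1, 2 and 3 were -1.05, -1.32 and -0.62. ATG8E read 6.11, 5.98 and 7.33 in Col-0 red and 6.58, 7.05 and 7.73 in Col-0 dark, groups that overlapped. It was lower after red within each number, by a log2 change of -0.65 (limma adjusted p = 0.5 without the block and 0.012 with it, where the SE was 0.15). ATG8B read 9.54, 9.77 and 10.02 in Col-0 red and 9.80, 10.07 and 10.36 in Col-0 dark. Its change of -0.31 was the smallest of these (limma adjusted p = 0.43 without the block and 0.0089 with it). With the block, 6 of the 8 genes were called, all lower, where 26.4% of all probe sets were called and 13.1% lower.

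ATG8G and ATG3 passed in neither fit. ATG8G averaged 9.27 ± 0.02 in Col-0 red and 9.20 ± 0.14 in Col-0 dark (SD, n = 3 each), a log2 change of 0.06 with a 95% interval from -0.22 to 0.34. ATG3, the conjugating enzyme, read 9.41, 9.42 and 9.30 in Col-0 red and 9.50, 9.54 and 9.45 in Col-0 dark. These groups lay apart by a small amount, and 16.4% of all probe sets had no overlap in this direction. The change of ATG3, -0.13 (SE 0.08), had limma adjusted p = 0.4, or 0.23 with the block. Its 95% interval went from -0.31 to 0.06, so a small difference was not resolved.

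**Figure D2:**
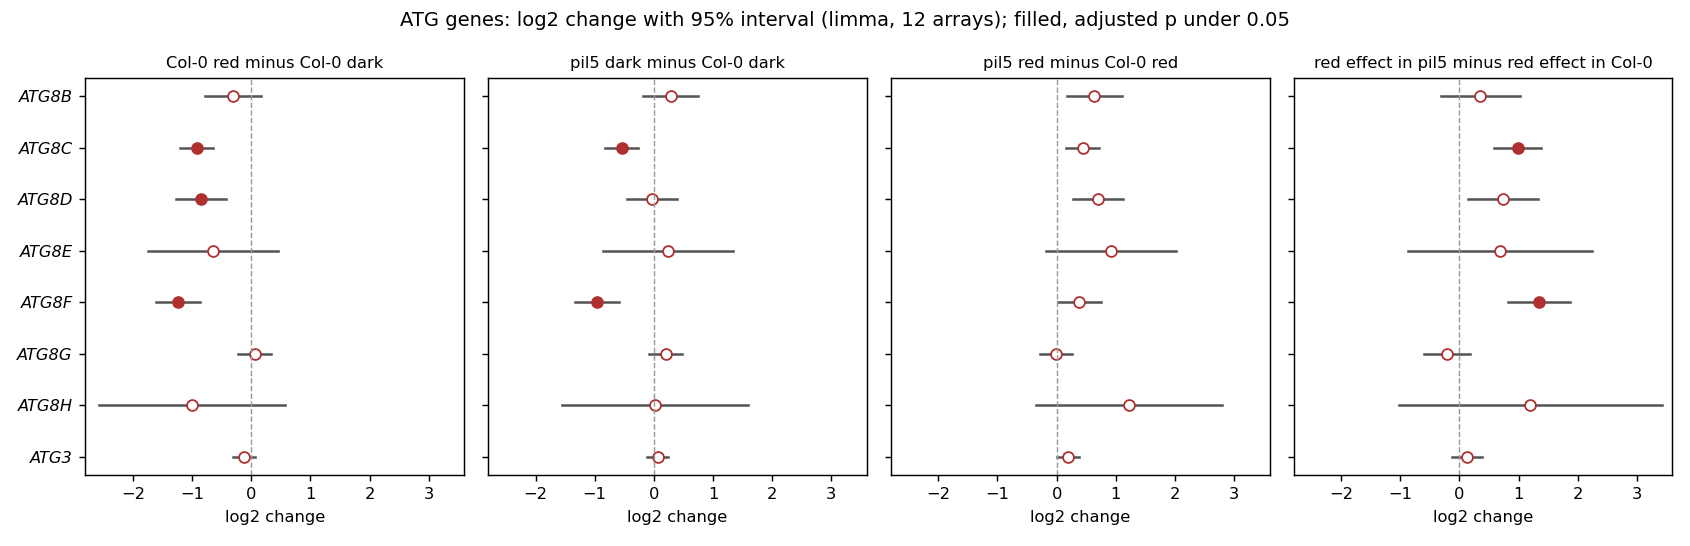
Log2 changes of the 8 ATG genes in 4 comparisons, from limma on all 12 arrays without a block. Points are the changes, lines their 95% intervals, and filled points had adjusted p under 0.05 over all probe sets. ATG8C and ATG8F have filled points for red in Col-0, for pil5 in the dark and for the interaction, and ATG8D for red in Col-0. These comparisons all use the Col-0 dark arrays, so they are not independent.

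In the dark, fewer of these genes were lower in pil5 than in wild type. The comparison of pil5 dark with Col-0 dark asks what the mutation does where far-red was the last light. ATG8F and ATG8C fell, and the other 6 members did not pass. limma called 2 of the 8 genes, both lower, where it called 12.1% of all probe sets (6.01% lower). With the block 3 were called, the same pair and ATG8B, which was higher, where 23.8% of all probe sets were called. The median log2 change of the 8 was 0.04, and 0.01 over all probe sets.

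ATG8F read 9.47, 9.45 and 9.25 in pil5 dark, against 10.41, 10.41 and 10.24 in Col-0 dark. Its differences by number were -0.95, -0.96 and -0.98, and the log2 change was -0.96 (SE 0.17, limma adjusted p = 0.0069). All pil5 dark arrays lay below all Col-0 dark arrays, which held for 14.8% of probe sets in this direction. ATG8C read 8.18, 8.51 and 8.03 in pil5 dark and 8.80, 8.83 and 8.73 in Col-0 dark, again without overlap. Its change of -0.54 (SE 0.13, limma adjusted p = 0.02) did not pass once pil5 dark 1, pil5 dark 3, Col-0 dark 1 or Col-0 dark 2 was left out, with adjusted p up to 0.085.

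ATG8D, ATG8E and ATG8H did not pass for pil5 in the dark in either fit. ATG8D read 9.41, 9.69 and 9.93 in pil5 dark and 9.56, 9.61 and 9.97 in Col-0 dark, a log2 change of -0.04 with a 95% interval from -0.45 to 0.38. With the block its SE was 0.08 and adjusted p = 0.81 (limma). ATG8H had 0.02 and ATG8E 0.23, with limma adjusted p of 0.94 and 0.33 with the block. ATG8B averaged 10.36 ± 0.32 in pil5 dark and 10.08 ± 0.28 in Col-0 dark (SD, n = 3 each), a change of 0.28 with limma adjusted p = 0.49, and 0.015 with the block. It was thus higher in pil5 within each number, by 0.22, 0.33 and 0.30.

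ATG8G was higher in all pil5 dark arrays (9.45, 9.43 and 9.34) than in all Col-0 dark arrays (9.25, 9.31 and 9.05). Such a gap upward held for 14.7% of probe sets. The change of 0.20 (SE 0.13) had limma adjusted p = 0.38, and 0.17 with the block. For ATG3 the change was 0.06 (SE 0.08, limma adjusted p = 0.72).

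**Figure D3:**
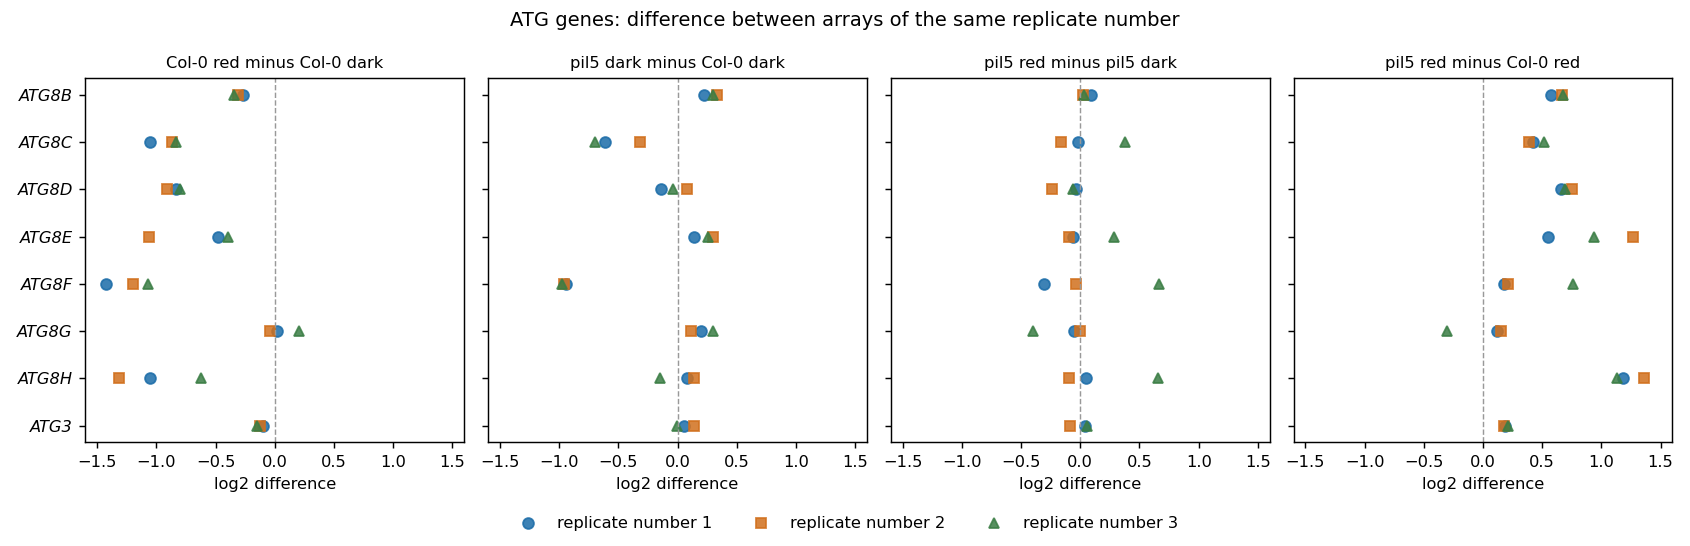
Differences in log2 signal between arrays of the same replicate number, for the 8 ATG genes in 4 comparisons. Each symbol is 1 replicate number, and the dashed line is no difference. For red in Col-0 the symbols of every gene but ATG8G lie left of 0 in all numbers. For red in pil5 the number 3 symbols of ATG8C, ATG8E, ATG8F, ATG8H and, narrowly, ATG3 lie right of their other symbols.

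The size of the red effect and of the pil5 effect in the dark was compared by setting pil5 dark against Col-0 red directly, a comparison chosen after the values were seen. It is the same as the difference between both effects, since they share the Col-0 dark arrays. The log2 change was positive for all 8 genes, as for 52.5% of all probe sets, but it did not pass for most. Without the block limma called 0 of the 8 (0.448% of all probe sets). At an unadjusted p under 0.05 there were 4 of the 8, against 11.3% of all probe sets. With the block 4 were called higher in pil5 dark, ATG8B, ATG8D, ATG8E and ATG8H, where 7.73% of all probe sets were called (3.45% higher).

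ATG8D averaged 9.68 ± 0.26 in pil5 dark and 8.86 ± 0.27 in Col-0 red (SD, n = 3 each), and these groups did not overlap, as for 8.56% of probe sets in this direction. The log2 change was 0.81, with limma adjusted p = 0.099, and 9.8e-04 with the block. For ATG8H the change was 1.02 (limma adjusted p = 0.69, and 0.0066 with the block), and for ATG8E it was 0.88 (0.59, and 0.0097 with the block). In the fit with the block, these genes were thus lower in Col-0 red than in pil5 dark. The change of ATG8F was 0.27 (SE 0.17, limma adjusted p = 0.63, and 0.42 with the block), with a 95% interval from -0.09 to 0.64. ATG8C had 0.38 (limma adjusted p = 0.26, and 0.063 with the block).

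In pil5 seeds no ATG gene was called after the red pulse. The comparison of pil5 red with pil5 dark asks what red does without PIL5. limma called 0 of the 8 genes and 0.00% of all probe sets, and the block gave the same counts. At an unadjusted p under 0.05 there were 0 of 8 genes in either fit, against 1.17% of all probe sets without the block and 3.04% with it. The log2 changes lay between -0.15 (ATG8G) and 0.20 (ATG8H), with a median of 0.05. Without pil5 red 3 and without the block the median was -0.10, with pil5 dark 3 still in the fit. ATG8D read 9.38, 9.45 and 9.86 in pil5 red and 9.41, 9.69 and 9.93 in pil5 dark, a change of -0.11 with a 95% interval from -0.53 to 0.31.

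ATG8F read 9.16, 9.41 and 9.92 in pil5 red, against 9.47, 9.45 and 9.25 in pil5 dark. The array pil5 red 3, with its low bioC signal, was alone in lying above the pil5 dark array of its number. ATG8F had a change of 0.11 with that array and -0.10 without it. ATG8H had 0.20 with it and -0.40 without it, and with the block 0.20 and 0.10. Neither value passed in limma (adjusted p from 0.92 to 1).

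After the red pulse, 5 ATG8 transcripts were called higher in pil5 than in wild type in the fit with the block, and none without it. Of the 8 genes 7 had a positive change for pil5 red against Col-0 red, with a median of 0.54, against 0.0033 over all probe sets. limma called 0 of the 8 (0.193% of all probe sets). At an unadjusted p under 0.05 there were 5 of the 8, against 12.0% of all probe sets. With the block it called ATG8B, ATG8C, ATG8D, ATG8E and ATG8H, 5 of 8, all higher in pil5, where 8.27% of all probe sets were called and 3.57% higher.

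ATG8H read 7.17, 7.89 and 9.35 in pil5 red and 5.99, 6.54 and 8.22 in Col-0 red. The groups overlapped, but within numbers the differences were 1.18, 1.36 and 1.13, and the change of 1.22 had limma adjusted p = 0.53, and 0.0028 with the block. In the fit without the block its value was 0.62 without pil5 red 3. It was 0.76 with Col-0 red 1 left out and 1.88 with Col-0 red 3 left out, so its size was poorly fixed there. With the block and without pil5 red 3 it was 1.12. ATG8D read 9.38, 9.45 and 9.86 in pil5 red and 8.72, 8.70 and 9.17 in Col-0 red. All pil5 red arrays were above all Col-0 red arrays, as for 7.90% of probe sets in this direction, and the change was 0.70 (SE 0.19, limma adjusted p = 0.17, and 0.0013 with the block). ATG8B had a change of 0.64 (limma adjusted p = 0.25, and 0.0011 with the block) and ATG8E of 0.92 (0.5, and 0.0082 with the block). The value of ATG8E was 0.48 without pil5 red 3 and 1.35 at most with another array left out, and 0.83 with the block and without pil5 red 3.

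The 2 genes that were lower in pil5 in the dark had smaller values here than ATG8B, ATG8D, ATG8E and ATG8H. ATG3 (0.19) and ATG8G (-0.01), not called in the dark, had smaller values still. ATG8C averaged 8.31 ± 0.13 in pil5 red and 7.87 ± 0.12 in Col-0 red (SD, n = 3 each), a change of 0.44 (limma adjusted p = 0.19, and 0.034 with the block). ATG8F had 0.38 (limma adjusted p = 0.39, and 0.2 with the block). Without pil5 red 3 and with the block, ATG8C had 0.35 (limma adjusted p = 0.069) and ATG8F 0.14 (0.54), while ATG8B, ATG8D, ATG8E and ATG8H still passed, with adjusted p from 0.001 to 0.01.

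The interaction tests whether the red effect differed between pil5 and Col-0. It is the red effect in pil5 minus that in Col-0, so a positive value means that the red effect was higher in pil5. For a gene that fell in Col-0, it means a fall that was smaller or absent in pil5, or a rise there. The interaction shares the Col-0 dark arrays with red in Col-0 and with pil5 in the dark, so its calls are not independent of theirs. limma called 2 of the 8 genes, both positive, where it called 6.34% of all probe sets (3.12% positive). ATG8F had an interaction of 1.34 (SE 0.23, limma adjusted p = 0.018), and 1.13, 1.17 and 1.74 by replicate number. ATG8C had 0.99 (SE 0.18, limma adjusted p = 0.019). The call of ATG8F was lost without Col-0 dark 1, Col-0 dark 2 or Col-0 red 1, and that of ATG8C without these or pil5 dark 1, with adjusted p up to 0.061 and 0.063.

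With the block 5 of 8 genes had a positive interaction that passed, where 17.5% of all probe sets were called (8.74% positive). The added genes were ATG8D (0.74, limma adjusted p = 0.0048), ATG8H (1.201, 0.0098) and ATG8B (0.36, 0.032). ATG8D had interactions of 0.80, 0.67 and 0.74 by number, and ATG8H of 1.103, 1.22 and 1.28. ATG8E missed with 0.69 (limma adjusted p = 0.055 with the block), and ATG8G (-0.21) and ATG3 (0.13) passed in neither fit. Without pil5 red 3 and with the block the count was again 5.

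The order of the group means took different forms within the family. For some genes, ATG8F and ATG8E among them, the place of pil5 red above pil5 dark rested on pil5 red 3. Without that array and without the block, pil5 red against pil5 dark had -0.10 for ATG8F, -0.09 for ATG8B, -0.40 for ATG8E and -0.40 for ATG8H. That fit still held pil5 dark 3, and number 3 was the highest in both groups for ATG8B, ATG8E and ATG8H. With the block and without pil5 red 3 the change was -0.14, 0.05, -0.05 and 0.10 for the same genes. Within numbers 1, 2 and 3, ATG8B was higher in pil5 red than in pil5 dark by 0.092, 0.026 and 0.035. The orders below are over all 12 arrays. For ATG8C and ATG8F the order was Col-0 dark, pil5 red, pil5 dark, Col-0 red from high to low. Col-0 dark and Col-0 red each lay apart from their neighbours in that order, while both pil5 groups overlapped each other. A gap of pil5 dark above Col-0 red held for 8.56% of all probe sets. The share with Col-0 dark above pil5 red is not given here. In ATG8F, pil5 red also overlapped with Col-0 red, which is not its neighbour in that order. For ATG8D the order was Col-0 dark, pil5 dark, pil5 red, Col-0 red, and among the neighbours Col-0 red alone lay apart. A gap of pil5 red above Col-0 red held for 7.90% of all probe sets. For ATG8B, ATG8E and ATG8H the order was pil5 red, pil5 dark, Col-0 dark, Col-0 red, and all neighbours overlapped in their raw levels. ATG3 had the same order with Col-0 red apart, over a range of means of 0.19. A gap of Col-0 red below Col-0 dark held for 16.4% of all probe sets. The means of ATG8G spanned 0.20, with pil5 dark highest and apart from Col-0 red, its neighbour, as for 8.56% of all probe sets.

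Correlations over the 12 arrays describe the same grouping, with groups and replicate numbers shared by all points. ATG8C and ATG8F had r = 0.93, and ATG8E and ATG8H r = 0.98. Between members of these pairs r was lower, from 0.28 (ATG8E and ATG8F) to 0.37 (ATG8C and ATG8H). With the group means removed, ATG8B, ATG8D, ATG8E and ATG8H correlated at r between 0.92 and 0.98, the 4 genes whose residual spread shrank most with the number as a block. ATG8C against these 4 then had r between 0.01 and 0.16. ATG8G and ATG3 ran against the same 4 genes, with r from -0.75 to -0.64 for ATG8G and from -0.68 to -0.54 for ATG3.

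Other genes of the pathway were taken from lists by locus, with 62 entries over the ATG1 kinase complex, the lipid kinase complex, membrane supply, the conjugation enzymes, ATG8, the TOR and SnRK1 kinases and receptors. The RefSeq table gave 48 of these loci the listed name. Of the 48, 13 had a probe set of 1 gene, which were the 8 members and 5 others. The others were ATG8A and ATG8I, which the annotation calls APG8A and APG8H, ATG101, a subunit of the ATG1 kinase complex that starts autophagy, and RAPTOR1A and RAPTOR1B, subunits of the TOR kinase complex that restrains autophagy. A further 10 listed loci had a probe set, but the RefSeq table did not give them the listed name, and these were not used. For red in Col-0, 2 of these 5 fell, 1 rose and 2 did not pass, where 15.1% of all probe sets were called. With the block 4 fell and 1 rose, where 26.4% were called.

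ATG8I moved like ATG8F and ATG8C. It read 10.51, 10.55 and 10.62 in Col-0 red and 11.55, 11.45 and 11.27 in Col-0 dark, a log2 change of -0.86 (SE 0.13, limma adjusted p = 0.003). In pil5 dark it read 10.73, 10.94 and 10.71, a change of -0.63 against Col-0 dark (SE 0.13, limma adjusted p = 0.015). Col-0 dark was thus above both of the other groups in every array. Such gaps held for 16.4% of all probe sets against Col-0 red and 14.8% against pil5 dark. The interaction of ATG8I was 0.94 (limma adjusted p = 0.024). Its call in the dark ended where pil5 dark 3, Col-0 dark 1 or Col-0 dark 2 was left out, with adjusted p up to 0.067.

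ATG8A read 8.59, 8.58 and 9.27 in Col-0 red and 9.27, 9.35 and 9.60 in Col-0 dark. These groups touched without overlapping, and 16.4% of all probe sets had no overlap in this direction. For ATG8A the change of -0.60 had limma adjusted p = 0.078, and 0.0081 with the block. In pil5 dark against Col-0 dark it had 0.12 (limma adjusted p = 0.8), so its values lay nearer to those of ATG8D. Over all 9 ATG8 genes measured, 4 fell after red in Col-0 and 0 rose, where 7.33% of all probe sets were called lower. With the block 8 fell, ATG8G being the exception, where 13.1% were called lower. In pil5 dark 3 of the 9 fell, ATG8C, ATG8F and ATG8I, where 6.01% of all probe sets were called lower.

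ATG101 averaged 6.30 ± 0.13 in Col-0 red and 6.98 ± 0.16 in Col-0 dark (SD, n = 3 each), a log2 change of -0.68 (SE 0.11, limma adjusted p = 0.0035). It had -0.25 in pil5 in the dark (limma adjusted p = 0.18, and 0.046 with the block) and an interaction of 0.66 (adjusted p = 0.036). RAPTOR1A went the other way. It read 6.98, 7.11 and 6.90 in Col-0 red, above all Col-0 dark arrays at 6.63, 6.35 and 6.38. The share of probe sets with such a gap upward is not given here. The change was 0.54 (SE 0.12, limma adjusted p = 0.014), lost without Col-0 dark 2 or Col-0 red 2 (adjusted p up to 0.068), and the interaction was -0.75 (adjusted p = 0.032). RAPTOR1B had a change of -0.24 after red in Col-0 (limma adjusted p = 0.17, and 0.041 with the block).

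**Figure D4:**
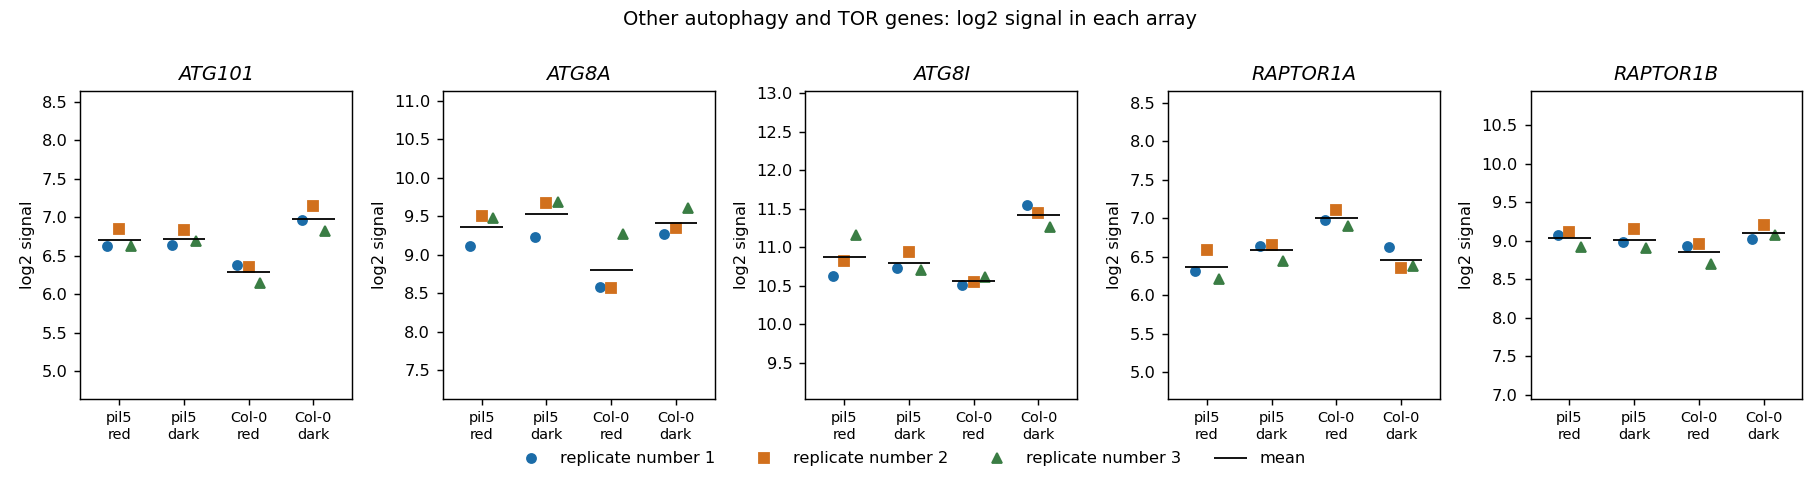
Log2 signal of the other 5 measured pathway genes in each array, with pil5 red, pil5 dark, Col-0 red and Col-0 dark from left to right. Symbols are arrays by replicate number, black lines are group means, and every panel spans 4 log2 units. ATG8I is highest in the Col-0 dark arrays, ATG101 is lowest in the Col-0 red arrays, and RAPTOR1A is highest there.

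For the 3 members with the lowest adjusted p after red in Col-0, the 2 most alike probe sets were sought among 1571 others of 1 gene with a symbol, by Pearson's r over the 12 arrays. For ATG8F they were LUL1, a RING-type ubiquitin ligase gene (r = 0.99), and ATG8I (r = 0.98). For ATG8C they were the gibberellin receptor gene GID1A (r = 0.97) and the linker histone gene HIS1-3 (r = 0.96). High likeness was common for ATG8F, with 49 of the 1571 candidates at r over 0.9, and less so for ATG8C with 13 and ATG8D with 7. For ATG8D they were DAYSLEEPER, a gene derived from a transposase (r = 0.94), and ATG8A (r = 0.93). With the group means removed, these r lay between 0.78 and 0.93. All points share the groups and the replicate numbers.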

How the data were processed

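RNA of imbibed seeds was profiled on 12 Affymetrix arrays, with biotinylated cRNA per the labels' protocols. The deposited table gives log2 signals of 22810 probe sets, already normalized by the authors to near-equal quantiles. MAS5 5.0 and RMA are both named in the submitters' processing notes, with no role for either. After 64 control probe sets were set aside, 22746 were used as deposited. Genes come from the supplied annotation, in which 13513 probe sets match 1 gene, 503 several and 8730 none. Names were checked in the RefSeq table (TAIR10.1). The array's build is not given in the sources used here, so no positions are given. Signal shared between ATG8 paralogues was not tested.

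limma 3.58.1 (R 4.3.3) fitted 1 mean per group to all 12 arrays, with eBayes without trend, two-sided, Benjamini-Hochberg adjustment over all 22746 probe sets and a threshold of 0.05. The fit was run on simulated arrays with known changes, independent values and no replicate-number effect. That run therefore does not bear on the choice between the fits with and without the block. Members and gene lists were chosen with earlier results of these data known. All members, the 5 other pathway genes with a probe set and a matching RefSeq name, and the 2 genes most alike to each of 3 members are named. Deviations from the group means correlated at r from 0.17 to 0.71 between arrays of the same replicate number in different groups. Between arrays of different numbers and groups r ran from -0.68 to 0.41, so the ranges overlapped. For 11 of the 12 arrays the highest r was with an array of the same number, so the number was taken to pair the samples. The titles give the replicate numbers but state no pairing between groups, so the pairing is inferred from these same data. The fit with the number as a block is given beside the results it changes. Titles call the samples biological replicates. Without the block, p-values are set against the spread between them within groups. With the block, they are set against the spread left after the replicate number is taken out. The number of arrays limits the precision. Alternatives were the block, the compared arrays alone, median centring, quantile normalization, omission of the dimmest 25% of probe sets, eBayes with trend and robust, and each array left out. Array weights and the block without pil5 red 3 were added after the data were seen.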

Additional observations from a re-analysis of the deposited data

Results flagged for a closer look

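The red effect differed between pil5 and Col-0 in 5 of the 13 pathway genes that had a probe set and a matching name, by the interaction term (limma, adjusted p under 0.05). The interaction, red effect in pil5 minus red effect in Col-0, was 0.99 for ATG8C, 1.34 for ATG8F, 0.94 for ATG8I, 0.66 for ATG101 and -0.75 for RAPTOR1A. Over all probe sets 6.34% were called. Without pil5 red 3 all 5 still passed, with 0.93, 1.13, 0.80, 0.69 and -0.67 in the same order and adjusted p from 0.0078 to 0.049 (limma). The values changed little with the arrays left out in turn, between 0.88 and 1.121 for ATG8C, 1.13 and 1.51 for ATG8F, 0.80 and 1.07 for ATG8I, 0.58 and 0.73 for ATG101, and -0.86 and -0.67 for RAPTOR1A. Adjusted p crossed the threshold more often. All 5 calls ended without Col-0 dark 1, without Col-0 dark 2 or without Col-0 red 1. Those of ATG8C, ATG8I, ATG101 and RAPTOR1A also ended without pil5 dark 1. Those of ATG8I, ATG101 and RAPTOR1A ended without Col-0 red 2, those of ATG8I and ATG101 without pil5 dark 3, and those of ATG101 and RAPTOR1A without Col-0 red 3. ATG101 also lost its call without pil5 red 2, and RAPTOR1A without pil5 dark 2. Adjusted p then reached at most 0.063 for ATG8C, 0.061 for ATG8F, 0.073 for ATG8I, 0.1 for ATG101 and 0.097 for RAPTOR1A, and no interaction changed sign.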

How the results depend on the processing

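Among the 8 members and the 5 other pathway genes, no log2 change that passed the threshold changed sign under an alternative that was run; the most alike genes outside the lists were not rerun. Counts over all probe sets were 3443 for red in Col-0, 2750 for pil5 in the dark, 0 for red in pil5, 44 for pil5 after red, 102 for pil5 dark against Col-0 red and 1443 for the interaction. With the replicate number as a block they were 6009, 5406, 0, 1880, 1759 and 3973, and the ATG counts were 6, 3, 0, 5, 4 and 5. Apart from the calls given in the report and those of ATG8A (0.011), ATG101 (0.013) and RAPTOR1A (0.036) in pil5 dark against Col-0 red, and of ATG101 (0.016), ATG8A (0.032) and RAPTOR1A (0.0071) in pil5 after red (limma adjusted p with the block), the block changed no other call. The block without pil5 red 3 gave 7785, 7377, 2183, 3506 and 4086 probe sets, red in pil5 left aside, and 6 ATG genes for red in Col-0, 4 for pil5 after red, 5 for pil5 dark against Col-0 red and 5 for the interaction. Array weights gave 7549, 7008, 2800, 2722 and 5242 probe sets, with 4 ATG genes for pil5 after red and 5 for pil5 dark against Col-0 red. With the compared arrays alone, 1 ATG gene remained for pil5 in the dark (ATG8C had adjusted p = 0.05), 0 probe sets were called for pil5 after red (2255 at an unadjusted p under 0.05 in limma), and 3 for pil5 dark against Col-0 red. Median centring gave 72 for pil5 after red. With each array left out, probe set counts ranged from 1587 to 4668 for red in Col-0, 769 to 3965 for pil5 in the dark, 3 to 112 for pil5 after red, 0 to 362 for pil5 dark against Col-0 red and 68 to 2104 for the interaction. ATG counts ranged from 2 to 3, 1 to 2, 0 to 0, 0 to 1 and 0 to 2 in these comparisons. With trend and robust, the interactions of ATG101 and RAPTOR1A had adjusted p of 0.072 and 0.056 (limma). The cause of these shifts was not tested.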
